A study of Mus musculus with 29 samples.

Results

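Transcripts of 9 genes that carry or limit the adrenergic signal of the heart were followed through heart failure (HF) and recovery in mice: the receptors Adrb1, Adra1a and Adra1b, the receptor kinases Adrbk1 and Grk5, the adenylyl cyclases Adcy5 and Adcy6, the phosphodiesterase Pde4d and the phosphatase inhibitor Ppp1r1a. They were chosen by symbol and not by a cut on their values, though with earlier results of these data known. All 9 were found among the 29,955 genes of the expression table. All animals were C57BL6 mice, 3 months old at the start, and the study's methods describe them as male and wild type. For HF, mice drank water with 0.3 mg/ml L-NAME, which inhibits nitric oxide synthase, and 1% NaCl for 5 weeks, and from week 1 an osmotic pump of 28 days delivered 0.7 mg/kg/day angiotensin II. For recovery, mice treated in this way returned to normal water as the pump ran out. Controls were age-matched mice. Libraries numbered 2 at HF week 3 and 3 at HF week 5, then 2, 2, 3, 2 and 5 at Recovery weeks 7, 9, 11, 13 and 19, and 5 at Control week 19, with weeks counted from the start of induction. The tissue is labelled whole heart or whole ventricle, whereas the methods name frozen apical portions. Control week 19 is matched in age to Recovery week 19 and is 14 weeks further on than HF week 5, so that HF and age cannot be told apart in the comparisons of HF with control made here. Week 5 controls, matched in age to HF week 5, are labelled for 4 samples, but 5 columns bear their name, and they were not used.

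Noradrenaline and adrenaline reach cardiomyocytes through β1-adrenergic receptors, which act on the stimulatory G protein and adenylyl cyclase to raise cAMP, and through α1-adrenergic receptors, which act on the Gq protein and phospholipase C. Cyclic AMP activates protein kinase A (PKA), whose phosphorylation of calcium handling and sarcomere proteins raises the rate and force of contraction. Receptor kinases phosphorylate occupied receptors, which then bind arrestins and lose their coupling, while phosphodiesterases degrade cAMP and protein phosphatase 1 removes the phosphates that PKA placed. Loss of β1 receptors from the failing heart and the rise of receptor kinases are textbook features of human heart failure.

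Values are FPKM, fragments divided by the length of the transcript and by how many were mapped in that library, which allows levels to be compared between genes. In Control week 19 the members lay in the order Adcy6 (38.5 ± 4.16 FPKM, SD, n = 5), Adrbk1 (21.9 ± 0.997), Adra1b (15.3 ± 4.21), Adcy5 (10.1 ± 1.92), Grk5 (7.80 ± 1.15), Adrb1 (4.86 ± 1.13), Pde4d (3.60 ± 0.589), Ppp1r1a (2.78 ± 0.551) and Adra1a (2.23 ± 0.491). The 5 libraries of Adcy6 and Adrbk1, of Adrbk1 and Adra1b, and of Grk5 and Adrb1 did not overlap, while all other neighbours in this order did. In HF week 5 the upper 2 places were the same, but Adra1b stood in place 5 behind Grk5 and Adcy5, and Adrb1 stood in place 8 behind Ppp1r1a and Pde4d. Of those neighbours the libraries of Adcy5 and Adra1b, and of Pde4d and Adrb1, overlapped.

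**Figure D1:**
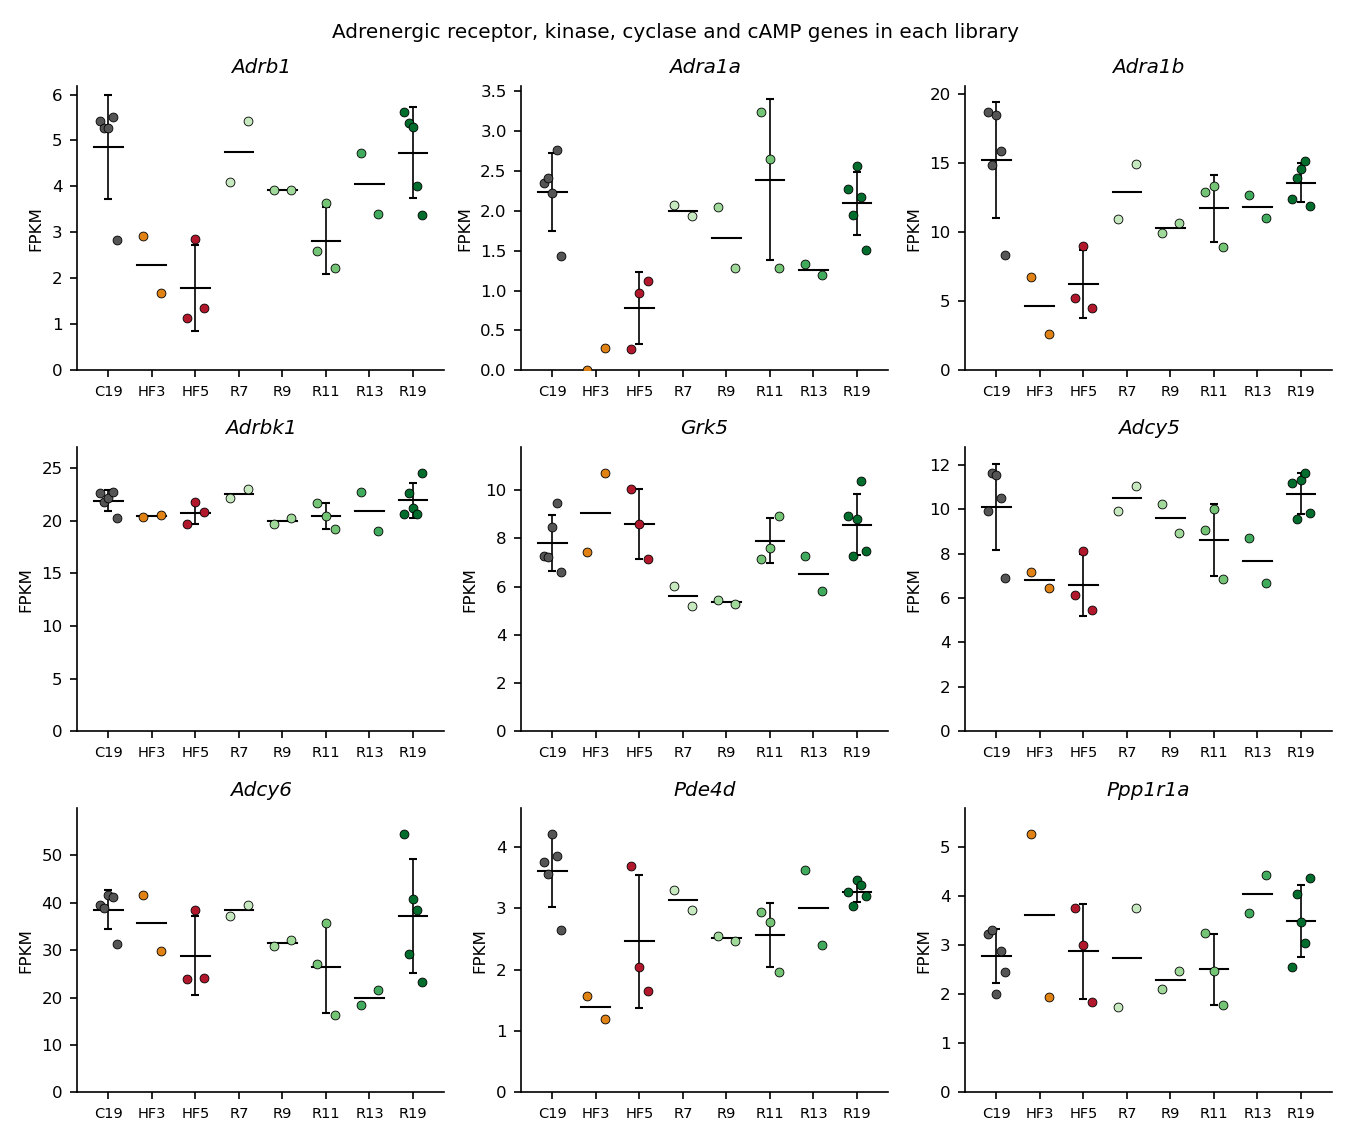
FPKM (vertical axes, linear from 0) of each of the 9 genes in the 24 libraries, by group (C19, Control week 19; HF3 and HF5, HF weeks 3 and 5; R7 to R19, Recovery weeks 7 to 19). Points are libraries, horizontal bars the mean (none where a library is listed at 0) and error bars the SD where a group has 3 libraries or more. The HF week 5 libraries of Adra1a all lie under the lowest control library, 1.43 FPKM, while those of Adrbk1 lie at 19.7 to 21.8 FPKM.

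Before the results, libraries that stood apart are described. HF week 5 library 1 held transcripts of the atrial genes Myl7 at 18390 FPKM and Sln at 9904 FPKM, against at most 1.12 and 0.988 FPKM in controls. Over a list of 8 atrial genes, all found in the table, the summed level was 82580, 2621 and 2342 FPKM in the HF week 5 libraries, 8024 and 14310 in HF week 3, 190.0 to 443.9 in Control week 19 and 243.9 to 907.8 in Recovery week 19. HF week 3 library 1 had 12816 genes above 0, against 16339 to 18091 in all others, and Control week 19 library 5 was lower than its group for several members. The abundant cardiomyocyte gene Myh6 is listed at 0 in HF week 5, Recovery week 19 and Control week 19. Myl2 and Actc1 are also listed at 0 in Control week 19. Myh6 read 37550 and 301800 FPKM in HF week 3 and 106000 to 316200 at Recovery weeks 7 to 13. That was 4.88% and 27.0% of the summed FPKM in HF week 3 and 14.2% to 23.7% at Recovery weeks 7 to 13. Comparisons of these times with HF week 5 or Control week 19 set libraries with and without Myh6 values side by side. Its part in them was not tested. Because of these zeros, the tissue was checked on 8 sarcomere genes above 0 throughout, such as Tnnt2 and Actn2. Their sum was 17310 to 18540 FPKM in Control week 19, 13420 to 20080 in HF week 5 and 12820 and 13460 in HF week 3. Of these genes Ldb3 lay below every control in HF week 5 (229.8 to 411.1 against 476.5 to 628.4 FPKM), as did Ldb3 and Tnnt2 in HF week 3. Relative depth, read from the steps between low values, was 0.728 to 1.39 over 23 libraries, and the absolute depth is unknown.

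Comparison of HF week 5 with Control week 19 asks which members differed in the failing heart. All 3 receptors, the cyclase Adcy5 and the phosphodiesterase Pde4d were lower in HF, and both receptor kinases, Adcy6 and Ppp1r1a did not pass the test. Thus 5 of 9 members were lower and 0 higher at an adjusted p under 0.05 (limma on log2(FPKM + 0.5), Benjamini-Hochberg adjustment over 12759 genes), where 12.4% of all genes tested were lower. The count lower was 3 without HF library 1 and 3 without HF library 3. The median log2 fold change was -0.52 over the members and 0.04 over all genes. In bulk tissue, fewer cells of a type and less RNA per cell cannot be told apart.

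Adrb1 encodes the β1-adrenergic receptor, the main catecholamine receptor of cardiomyocytes. Its level was 1.13, 2.86 and 1.36 FPKM in the 3 HF week 5 libraries and 5.41, 5.27, 5.27, 5.52 and 2.84 FPKM in the 5 controls. HF library 2, at 2.86 FPKM, lay just above control library 5, and HF libraries 1 and 3 were below all controls. Mean Adrb1 in HF was 36.7% of control, with a log2 fold change of -1.27 (SE 0.245, 95% interval -1.78 to -0.76, adjusted p = 0.00135 from limma).

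Adra1b encodes the α1B-adrenergic receptor, the more abundant of both α1 members here. It read 5.21, 9.04 and 4.52 FPKM in HF week 5 and 18.7, 14.9, 18.5, 15.9 and 8.35 FPKM in control. Again only HF library 2 and control library 5 crossed. Adra1b in HF was at 40.98% of control, with a log2 fold change of -1.23 (SE 0.266, 95% interval -1.78 to -0.67, adjusted p = 0.00298 from limma).

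Adra1a encodes the α1A-adrenergic receptor, which couples to the same G protein. It read 0.271, 0.963 and 1.12 FPKM in HF week 5 and 2.35, 2.40, 2.23, 2.76 and 1.43 FPKM in control. It was the 1 member whose HF libraries all lay below all controls, which held for 14.7% of all genes tested. Its HF mean was 35.1% of control, with a log2 fold change of -1.14 (limma, SE 0.259, adjusted p = 0.00399). Without HF library 1, the log2 fold change was -0.81 and the adjusted p 0.0516 (limma), so that the call rests in part on that library.

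Adcy5 and Adcy6 encode the main adenylyl cyclases of the heart, which make cAMP when the stimulatory G protein is active. Adcy5 read 6.12, 8.13 and 5.47 FPKM in HF week 5 and 9.93, 11.6, 11.5, 10.5 and 6.89 FPKM in control. Only HF library 2 reached into the control range, above control library 5. Its log2 fold change was -0.58 (limma, SE 0.161, adjusted p = 0.0140), or 65.1% of control. It was -0.54 without HF library 1 (adjusted p = 0.0724) and without HF library 3 -0.46 (adjusted p = 0.0787), from limma.

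Adcy6, at a higher level per length, read 23.9, 38.5 and 24.1 FPKM in HF week 5 and 39.5, 38.8, 41.6, 41.3 and 31.4 FPKM in control. HF libraries 1 and 3 were below all controls, and HF library 2 was among them. The log2 difference was -0.44, its 95% interval reached from -0.95 to 0.07, and it was not called (adjusted p = 0.199 from limma). Whether both cyclases differed in response was tested as the ratio of Adcy5 to Adcy6 within each library, which was 0.256, 0.211 and 0.227 in HF week 5 and 0.220 to 0.299 in control. The groups overlapped (exact permutation p = 0.25, two-sided). With 3 against 5 libraries the smallest p that can be reached is 0.0357, and 1 ratio alone at that p would have an adjusted value of 0.428 over the 12 ratio tests, so that these tests are given as values only.

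Pde4d encodes a cAMP phosphodiesterase that in cardiomyocytes sits close to β-adrenergic receptors and calcium channels. It read 3.69, 2.04 and 1.65 FPKM in HF week 5 and 3.76, 3.55, 4.21, 3.85 and 2.64 FPKM in control. HF library 1, the library rich in atrial transcripts, was within the control range, and the other HF libraries were below it. The log2 fold change of -0.52 (limma, SE 0.184, adjusted p = 0.0463) was called in 10 of 19 alternative analyses. It was -0.80 without HF library 1 (adjusted p = 0.00595), without HF library 2 -0.44 (0.144) and without HF library 3 -0.32 (0.269), from limma.

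Adrbk1, now named Grk2, encodes the receptor kinase best known for switching off β-adrenergic receptors. It read 19.7, 21.8 and 20.8 FPKM in HF week 5 and 22.6, 21.7, 22.2, 22.7 and 20.3 FPKM in control. All 8 values lay close together, and the 95% interval of the log2 difference, -0.25 to 0.10, was the narrowest among the members. Grk5, a receptor kinase that also acts in the nucleus, read 10.1, 8.60 and 7.13 FPKM in HF week 5 and 7.27, 7.22, 8.46, 9.48 and 6.60 FPKM in control. Only HF library 1 exceeded the highest control, and the interval was -0.18 to 0.44. Neither kinase was called, with adjusted p of 0.553 for Adrbk1 and 0.566 for Grk5 (limma).

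Ppp1r1a encodes inhibitor 1, which blocks protein phosphatase 1 once PKA has phosphorylated it. It read 3.76, 3.01 and 1.84 FPKM in HF week 5 and 3.23, 3.31, 2.00, 2.89 and 2.45 FPKM in control. The HF libraries spanned the control range on both sides. The log2 difference was 0.01 with a 95% interval of -0.55 to 0.58, and it was not called (adjusted p = 0.975 from limma).

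**Figure D2:**
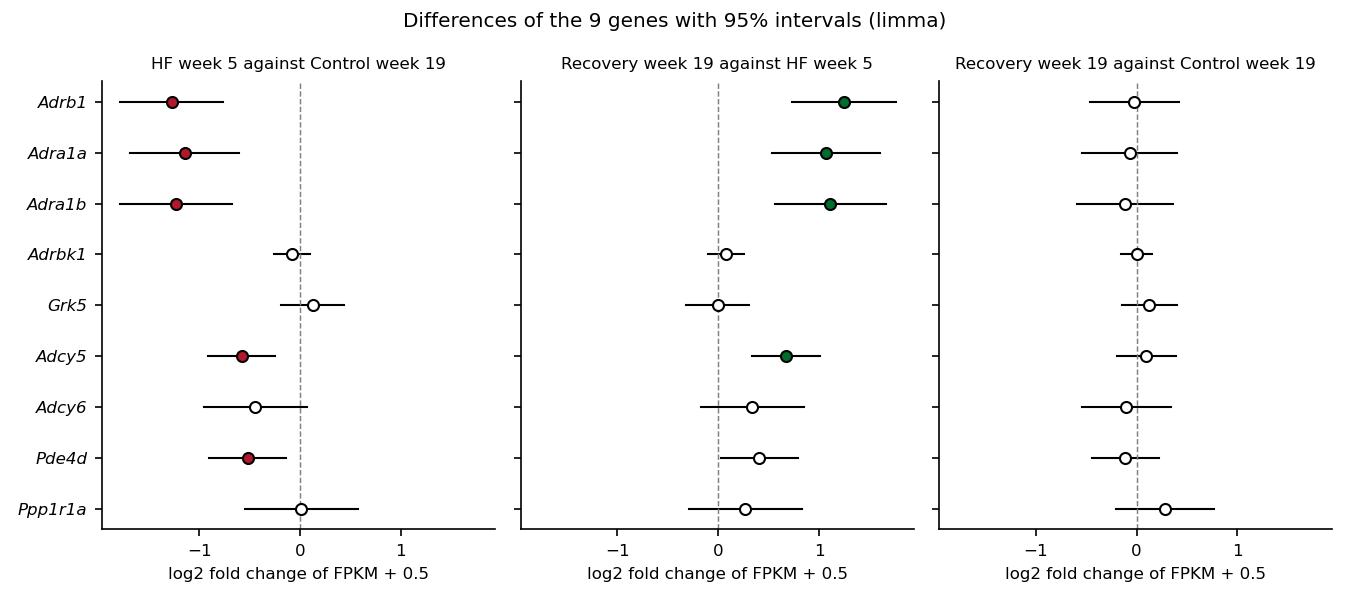
Log2 fold change of FPKM + 0.5 (horizontal axes) of the 9 genes in the 3 main comparisons, with 95% intervals as lines. Red points were lower and green points higher at an adjusted p under 0.05 (limma), and white points were not called. Of the 9 genes, 5 are red in the HF panel (3 without HF library 1 or 3), 4 are green in the panel of recovery against HF, and 0 are coloured in the panel of recovery against control.

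The lower receptor and cyclase levels were set beside cell type markers. Summed endothelial markers (8 genes) were 377.0 to 485.5 FPKM in HF week 5 and 266.8 to 336.4 in control, smooth muscle and pericyte markers (8 genes) 199.0 to 290.9 and 129.1 to 164.6, and fibroblast markers (8 genes) 356.6 to 707.4 and 252.9 to 360.3. Endothelial and smooth muscle sums did not overlap between the groups. Of single genes, 4 of 8 endothelial genes (Egfl7, Pecam1, Tek and Tie1), 5 of 8 smooth muscle and pericyte genes (Acta2, Cnn1, Myh11, Pdgfrb and Tagln) and 2 of 8 fibroblast genes (Col3a1 and Postn) lay above all controls, where 14.8% of all genes did. The pericyte genes Rgs5, at 8.13, 14.66 and 22.42 FPKM in HF and 21.1 to 24.6 in control, and Kcnj8, at 14.46 to 35.86 and 20.66 to 35.05, overlapped.

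Adipocyte genes (6) summed to 78.72, 83.96 and 36.89 FPKM in HF week 5, 59.24 and 43.48 in HF week 3, 32.72 to 40.1 in control and 31.82 to 49.32 in Recovery week 19. Nearly all of the sum in control was Cidea. Adipoq, which marks fat cells, read 10.51, 15.6 and 0.0516 FPKM in HF week 5, 6.09 and 5.76 in HF week 3 and at most 0.0961 in control, and Cidec read 12.66, 14.07 and 0.140 FPKM in HF week 5 and at most 0.130 in control. Ucp1 is listed at 0 in all controls and read 13.03, 1.68 and 0.292 FPKM in HF week 5, and Lep was at most 0.0556 FPKM in control and 0.0159 in HF week 5. HF libraries 1 and 2 thus held transcripts of fat cell markers, and HF library 3 had Adipoq within the control range. The part of these cell types in the lower member levels was not tested.
When each library was centred on the 8 sarcomere genes, which moved the median of all genes by 0.12 on the log2 scale, the log2 fold changes were -1.15 for Adrb1, -1.02 for Adra1a, -1.11 for Adra1b and -0.46 for Adcy5, all still called (adjusted p = 0.00153, 0.00610, 0.00556 and 0.0410 from limma). Pde4d was then at -0.39 and not called (adjusted p = 0.235 from limma).

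Atrial transcripts moved with HF as well, with 5 of 8 genes (Dkk3, Myl4, Myl7, Nppa and Sln) above all controls, where 14.8% of all genes were. In HF library 3, Sln read 1.285 FPKM and Myl7 6.162, against at most 0.988 and 1.12 in controls. The part of atrial transcripts in the lower member levels was not tested. HF libraries 3 and 2 had less of them than HF library 1, at 2342 and 2621 FPKM over the list, of which Nppa gave 2214 and 2100. Adrb1 was at 1.36 FPKM and Adra1b at 4.52 FPKM in HF library 3, below every control, and at 2.86 and 9.04 FPKM in HF library 2, above control library 5. With HF library 1 left out, 3 members were lower, where 6.45% of all genes were: Adrb1 at -1.07 (adjusted p = 0.0177), Adra1b at -1.14 (0.0254) and Pde4d at -0.80 (0.00595), while Adra1a (-0.81, adjusted p = 0.0516) and Adcy5 (-0.54, 0.0724) were not called (limma). With both HF week 3 libraries left out of the fit as well, a choice made after seeing the data, these log2 fold changes were the same, since HF week 3 enters only the shared estimate of spread, and 5 members were lower, with adjusted p of 0.0255 for Adra1a and 0.0475 for Adcy5 (limma). The share of all genes lower rose likewise, from 6.45% to 11.4%.

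**Figure D3:**
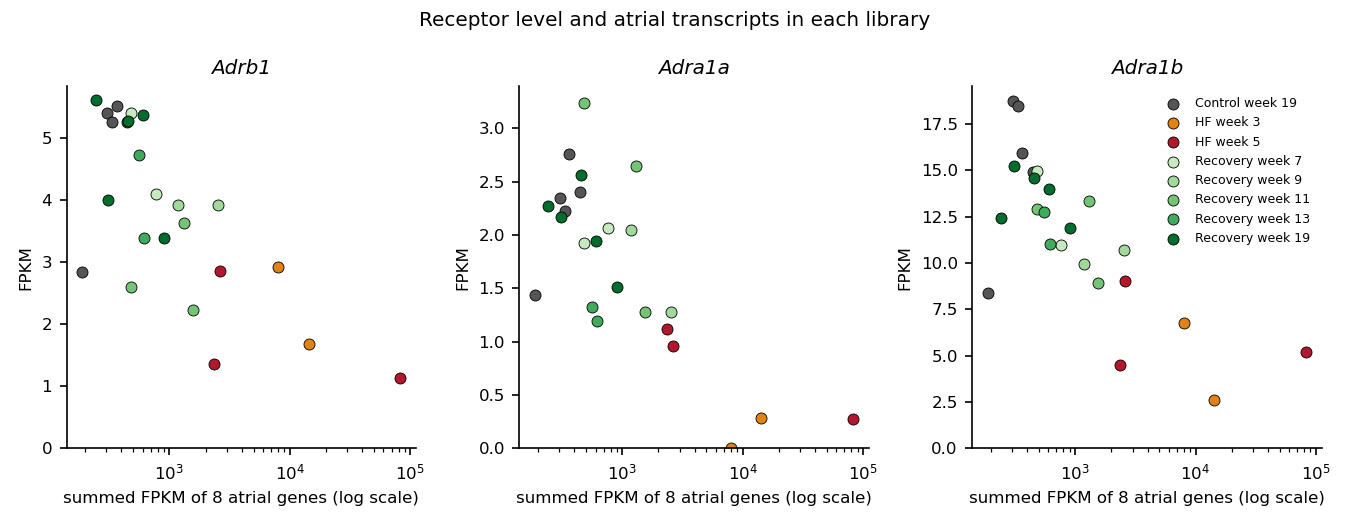
FPKM of Adrb1, Adra1a and Adra1b (vertical axes, linear from 0) against the summed FPKM of 8 atrial genes (horizontal axes, log scale) in each of the 24 libraries, coloured by group. The HF week 5 libraries at 2342 and 2621 FPKM of atrial genes and the one at 82580 all have Adra1b at or under 9.04 FPKM, and Control week 19 library 5, with the lowest atrial sum of 190.0 FPKM, has 8.35 FPKM.

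Sequences around the start sites of Adrb1, Adra1b and Adcy5, which were lower in HF, are shown. The window of Pde4d, also lower in HF, is described below without its bases. RefSeq windows of 300 bases, from 250 before to 50 after a start site, were at hand for 5 of the 9 members (build GRCm38.p6, whereas the expression values were made on mm9). Adrb1 lies at chr19:56721867-56722166 on the plus strand, Adra1b has a start site at chr11:43901188-43901487 and another at chr11:43836440-43836739, both on the minus strand, and Adcy5 lies at chr16:35154614-35154913 on the plus strand. Capitals mark the core of the cAMP response element (TGACG, or CGTCA on the other strand) and the GC box (GGGCGG, or CCGCCC on the other strand), which do not overlap each other here. All are written 5′ to 3′ on the strand of the gene.
Adrb1: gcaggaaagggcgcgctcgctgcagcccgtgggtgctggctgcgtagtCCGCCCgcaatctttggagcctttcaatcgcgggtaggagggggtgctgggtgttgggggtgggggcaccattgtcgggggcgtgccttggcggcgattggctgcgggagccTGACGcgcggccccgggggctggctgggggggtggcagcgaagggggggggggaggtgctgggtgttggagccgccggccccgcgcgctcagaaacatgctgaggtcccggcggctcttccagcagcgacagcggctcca
Adra1b, first start site: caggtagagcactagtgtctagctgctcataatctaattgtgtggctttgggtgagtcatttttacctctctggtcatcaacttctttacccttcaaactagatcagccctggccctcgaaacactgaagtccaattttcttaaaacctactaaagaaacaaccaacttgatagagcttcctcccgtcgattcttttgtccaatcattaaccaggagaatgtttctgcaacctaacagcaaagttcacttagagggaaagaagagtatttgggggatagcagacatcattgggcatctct
Adra1b, second start site: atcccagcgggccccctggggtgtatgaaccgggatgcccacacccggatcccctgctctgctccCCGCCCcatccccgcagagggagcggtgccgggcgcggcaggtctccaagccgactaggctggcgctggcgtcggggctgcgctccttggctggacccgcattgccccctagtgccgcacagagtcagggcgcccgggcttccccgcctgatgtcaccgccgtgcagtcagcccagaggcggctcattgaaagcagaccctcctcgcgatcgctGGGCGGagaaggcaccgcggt
Adcy5: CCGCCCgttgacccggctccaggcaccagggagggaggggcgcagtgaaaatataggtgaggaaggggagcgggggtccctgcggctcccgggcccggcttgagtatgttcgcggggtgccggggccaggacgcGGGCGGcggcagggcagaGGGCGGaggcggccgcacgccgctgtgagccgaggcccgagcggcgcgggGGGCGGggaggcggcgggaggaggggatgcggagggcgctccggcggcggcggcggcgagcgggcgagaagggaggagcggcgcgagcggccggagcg

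The windows of Adrb1, Adcy5 and the second start site of Adra1b were GC rich, at 72.3%, 79.0% and 71.3%, against a median of 52.7% over 32851 RefSeq promoter windows, while the first start site of Adra1b was at 42.3%. Adrb1 had 1 such core, 90 bases before the start, a motif that 20.8% of all windows hold, and 1 GC box. Adcy5 had 4 GC boxes and the second start site of Adra1b had 2, a motif held by 35.7% of all windows. The full cAMP response element TGACGTCA, held by 1.79% of all windows, was in none of the 4. The window of Pde4d, a member also lower in HF, was at 39.7% GC and held neither the core nor the GC box. The same held for Grk5, which was not called in HF, at 54.3% GC.

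Members were lower at an earlier time as well. In HF week 3, Adrb1 read 2.92 and 1.68 FPKM, Adra1b 6.75 and 2.63 FPKM, Adcy5 7.17 and 6.44 FPKM and Pde4d 1.57 and 1.20 FPKM. Adra1a is listed at 0 in library 1 and read 0.284 FPKM in library 2. Against Control week 19, the same 5 members were lower, as were 27.6% of all genes tested: Adra1a at -2.11 (adjusted p = 1.75e-05), Adra1b at -1.67 (0.000201), Pde4d at -1.12 (0.000286), Adrb1 at -0.94 (0.00944) and Adcy5 at -0.52 (0.0258), all from limma. The fit takes the 0 of Adra1a as a level, although abundant genes are also listed at 0 in this table, so that its value depends on the pseudocount and 1 library, at 0.284 FPKM, remains below control. Both libraries of Adra1b and Pde4d lay below all controls, as did those of 23.9% of all genes.

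Cell type markers moved with HF week 3 as well. Of the 8 atrial genes 5 lay above all controls, with Myl7 at 1805 and 5773 FPKM, and Nppa is listed at 0 in both libraries, which is not read as a level. Fibroblast sums were 739.7 and 746.8 FPKM against 252.9 to 360.3 in control, endothelial sums 414.9 and 524.4 against 266.8 to 336.4, and smooth muscle and pericyte sums 222.0 and 233.7 against 129.1 to 164.6. Above all controls lay 6 of 8 fibroblast, 5 of 8 endothelial, 5 of 8 smooth muscle and pericyte and 4 of 6 adipocyte genes, where 21.4% of all genes did, and below them 2 endothelial genes (Flt1 and Kdr) and Rgs5. Their part in these calls was not tested. Centring on the 8 sarcomere genes, whose sum was itself below control in HF week 3, moved the median of all genes by 0.47, after which Adra1a, Adra1b and Pde4d were still lower, Adrb1 (-0.47, adjusted p = 0.117) and Adcy5 (-0.05, adjusted p = 0.832) were not called, and Grk5 (0.66, adjusted p = 0.00915) and Adrbk1 (0.37, adjusted p = 0.0226) were higher relative to those genes (limma). From HF week 3 to HF week 5, only Adra1a was called, higher by 0.96 (adjusted p = 0.0409 from limma), with its 0 taken as a level, where 13.1% of all genes were higher. That call was lost with a pseudocount of 1 (adjusted p = 0.0762), with quantile normalization (0.414) and with sarcomere centring (0.124).

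Comparison of Recovery week 19 with HF week 5 asks which members differed after the agents were withdrawn. Recovery week 19 is 14 weeks further on than HF week 5, and earlier recovery times are also later than HF. Recovery and age thus cannot be told apart in comparisons with HF. All 3 receptors and Adcy5 were higher in recovery, and Pde4d, Adcy6, Adrbk1, Grk5 and Ppp1r1a were not called. That is 4 of 9 members higher and 0 lower, where 12.3% of all genes tested were higher, with a median log2 fold change of 0.41 over the members and -0.04 over all genes. The HF libraries are those of the comparison with control, so both comparisons share them. Cell type markers moved with this comparison too. Endothelial sums were 278.3 to 308.8 FPKM in Recovery week 19 against 377.0 to 485.5 in HF week 5, and smooth muscle and pericyte sums 134.0 to 177.0 against 199.0 to 290.9, both without overlap. Below all HF libraries lay 3 of 8 endothelial, 4 of 8 smooth muscle and pericyte, 5 of 8 atrial, 2 of 6 adipocyte and 1 of 8 fibroblast genes, where 12.7% of all genes did. Above all HF libraries lay 1 of 7 leukocyte genes (Cd68), where 14.1% of all genes did. Of the 8 sarcomere genes, Ldb3 lay above and Ttn below all HF libraries. The part of these markers in the member levels was not tested.

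Adrb1 read 5.62, 5.38, 5.28, 4.01 and 3.39 FPKM in Recovery week 19, all 5 above the highest HF library at 2.86 FPKM. It was higher by 1.25 on the log2 scale (SE 0.245, 95% interval 0.74 to 1.76, adjusted p = 0.00151 from limma). Adra1b read 12.4, 14.0, 14.6, 15.2 and 11.9 FPKM, again above every HF library, and was higher by 1.11 (limma, SE 0.266, adjusted p = 0.00546). Adra1a read 2.27, 1.94, 2.56, 2.17 and 1.51 FPKM, with no overlap with HF, and was higher by 1.07 (limma, SE 0.259, adjusted p = 0.00593). Without HF library 1, Adra1a was at 0.74 with an adjusted p of 0.0696 (limma).

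Adcy5 read 11.2, 9.54, 11.3, 11.6 and 9.84 FPKM in Recovery week 19, above all 3 HF libraries, and was higher by 0.68 (limma, SE 0.161, adjusted p = 0.00540). Thus 4 members had recovery libraries that all lay above HF, which held for 14.1% of all genes tested. Adcy6 varied most between recovery libraries, at 54.5, 29.3, 40.7, 38.4 and 23.2 FPKM, a range that enclosed HF library 2 and reached below both others. Its log2 difference of 0.34 had a 95% interval of -0.17 to 0.85 and was not called (adjusted p = 0.328 from limma).

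Pde4d read 3.27, 3.03, 3.47, 3.39 and 3.19 FPKM in Recovery week 19. Its recovery libraries lay within a narrow range, between HF library 1 and the other HF libraries. The log2 difference of 0.41 (95% interval 0.02 to 0.79) missed the adjusted threshold (adjusted p = 0.113 from limma) and passed it without HF library 1, at 0.69 (adjusted p = 0.0137 from limma). Adrbk1 ranged from 20.6 to 24.5 FPKM, Grk5 from 7.26 to 10.4 FPKM and Ppp1r1a from 2.55 to 4.36 FPKM, each overlapping with HF, with 95% intervals of -0.10 to 0.25, -0.32 to 0.31 and -0.29 to 0.83.

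Comparison of Recovery week 19 with Control week 19, both of the same age, asks whether a difference was left. None of the 9 members was called by limma and 0 of 9 had an unadjusted p under 0.05, where 3 of all 12759 genes (0.0235%) were called and 2.88% had an unadjusted p under 0.05. The libraries of all 9 overlapped between the groups, while 1.17% of all genes had none that did. Mean levels in recovery were 97.4% of control for Adrb1, 93.6% for Adra1a and 89.1% for Adra1b. The 95% intervals of the log2 difference were -0.47 to 0.42 for Adrb1, -0.54 to 0.40 for Adra1a, -0.60 to 0.37 for Adra1b, -0.19 to 0.39 for Adcy5, -0.54 to 0.34 for Adcy6 and -0.44 to 0.22 for Pde4d, so that differences within these bounds are not excluded. They were -0.15 to 0.15 for Adrbk1, -0.14 to 0.40 for Grk5 and -0.20 to 0.77 for Ppp1r1a.

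The 4 times between HF and week 19 were each compared with HF week 5, with the HF libraries shared by all. At Recovery week 7, 2 weeks after withdrawal, Adrb1 read 4.10 and 5.42 FPKM, Adra1b 10.9 and 14.95 FPKM, Adra1a 2.06 and 1.93 FPKM and Adcy5 9.94 and 11.02 FPKM, all above every HF week 5 library. Adrbk1, at 22.1 and 23.0 FPKM, also lay above HF, so that 5 members did, as did 23.4% of all genes with groups of this size. These 4 members were called higher, where 8.05% of all genes were: Adrb1 at 1.27 (adjusted p = 0.0107), Adcy5 at 0.65 (0.0365), Adra1a at 1.03 (0.0386) and Adra1b at 1.03 (0.0424), from limma. Cell type markers differed as well: endothelial sums were 258.6 to 283.0 FPKM over Recovery weeks 7 to 13 against 377.0 to 485.5 in HF week 5. Smooth muscle and pericyte sums were 108.8 to 164.3 FPKM at weeks 7, 9 and 13 and 121.1 to 208.3 at week 11. They were 199.0 to 290.9 FPKM in HF week 5. Leukocyte sums were 32.68 to 47.03 FPKM at week 11 and 43.3 to 52.02 at week 13, against 18.04 to 28.4 in HF week 5. At weeks 7 and 9 they overlapped with HF. Atrial sums were 480.9 to 767.5 FPKM at week 7, 1188 to 2546 at week 9, 478.3 to 1559 at week 11 and 556.7 to 621.3 at week 13, against 2342 to 82580 in HF week 5. Their part in the member levels was not tested. Adrb1 alone of these members remained called under sarcomere centring, and the other 3 then had adjusted p of 0.0794, 0.0562 and 0.0707.

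Grk5 was low in early recovery, though against Control week 19 it was not called at week 7 or week 9 (limma). It read 6.03 and 5.21 FPKM at Recovery week 7 and 5.43 and 5.30 FPKM at Recovery week 9, below all libraries of HF week 5 and of Control week 19. Lying below HF week 5 held for 27.0% of all genes at week 7 and 25.2% at week 9, and lying below control for 7.69% and 7.87%. At week 7 it was lower than at HF week 5 (log2 fold change -0.56 in limma, SE 0.187, adjusted p = 0.0489), where 6.75% of all genes were lower, a call lost under median centring (adjusted p = 0.0625) and sarcomere centring (0.0562). At week 9 the log2 fold change was -0.62 (adjusted p = 0.0517 from limma). Grk5 then read 7.13, 7.62 and 8.93 FPKM at week 11 and 7.28 and 5.80 FPKM at week 13.

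At Recovery week 9 only Adrb1 was called against HF week 5, at 1.03 (adjusted p = 0.0497 from limma), where 4.08% of all genes were higher, a call lost with a pseudocount of 1 (adjusted p = 0.0538) and with sarcomere centring (0.0915). Its libraries read 3.92 and 3.93 FPKM, above all of HF week 5. At Recovery week 11 only Adra1a was called, at 1.17 (adjusted p = 0.0159 from limma), where 5.50% were higher, with libraries at 3.24, 2.65 and 1.28 FPKM. Adrb1 then read 2.61, 3.63 and 2.22 FPKM, overlapping with HF, at 58.0% of control. At Recovery week 13 only Adrb1 was called, at 1.06 (adjusted p = 0.0353 from limma), where 5.09% were higher, with libraries at 4.73 and 3.39 FPKM. Adra1b at these times read 9.95 and 10.7, then 12.9, 13.4 and 8.92, then 12.7 and 11.02 FPKM. It exceeded all HF libraries at weeks 9 and 13 and not at week 11. The members above every HF library numbered 4 at week 9, 1 at week 11 and 3 at week 13, where 22.9%, 16.4% and 24.8% of all genes were.

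Against Control week 19, 0 members were called by limma at Recovery weeks 7, 9, 11 or 13, where 0.0470%, 0.0549%, 0.149% and 0.0784% of all genes were. At an unadjusted p under 0.05 the counts were 1 at week 7 (Grk5), 1 at week 9 (Grk5), 3 at week 11 (Adrb1, Adcy6 and Pde4d) and 1 at week 13 (Adcy6), all lower, where 3.61%, 3.60%, 8.45% and 10.4% of all genes passed in either direction. Adcy6 read 27.0, 35.7 and 16.4 FPKM at week 11 and 18.4 and 21.5 FPKM at week 13, the latter below every control and every HF week 5 library and at 51.8% of control. Adra1a, at 1.33 and 1.19 FPKM at week 13 or 56.4% of control, also lay below every control, and Ppp1r1a, at 3.65 and 4.42 FPKM, lay above every control. Week 13 libraries lay below control for 13.6% of all genes, above control for 13.1% and below HF for 25.8%. At week 9, Adrbk1 and Pde4d lay below every control with Grk5, as did 7.87% of all genes. The log2 difference of Adcy6 from control was -0.60 at week 11 (adjusted p = 0.478) and -0.93 at week 13 (95% interval -1.51 to -0.35, adjusted p = 0.249 from limma). Groups of 2 libraries limit these comparisons. Leukocyte sums (7 genes) were 32.68 to 47.03 FPKM at week 11 and 43.3 to 52.02 at week 13, against 15.9 to 24.13 in control. Fibroblast sums were 411.1 to 679.0 and 388.9 to 504.2 FPKM, against 252.9 to 360.3 in control. Endothelial sums overlapped control at both times. The part of these markers in the member levels was not tested.

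The balance between members was examined as ratios within a library, which cancel a common scale. The ratio of Adra1a to Adra1b was 0.0520, 0.107 and 0.247 in HF week 5, 0.120 to 0.174 in control and 0.127 to 0.183 in Recovery week 19, so that HF libraries lay on both sides of the others. The ratio of Adrb1 to the sum of both α1 receptors was 0.207, 0.285 and 0.242 in HF week 5 and 0.255 to 0.305 in control. In HF week 3 it was 0.433 and 0.577, above every control, whereas the HF week 5 libraries lay within or below the control range. The ratio of Adcy5 to Adcy6 in HF week 3, 0.172 and 0.216, was below every control. HF week 3 ratios were not tested. The ratio of Adrbk1 to Grk5 was 1.96, 2.53 and 2.92 in HF week 5 and 2.40 to 3.11 in control, and 3.67 and 4.41 in Recovery week 7. For 4 ratios and 3 comparisons, exact permutation p values (two-sided) were 0.143 to 0.857 and adjusted values at least 0.587. With 5 against 5 libraries the smallest p is 0.00794, or 0.0953 adjusted for 1 ratio alone.

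**Figure D4:**
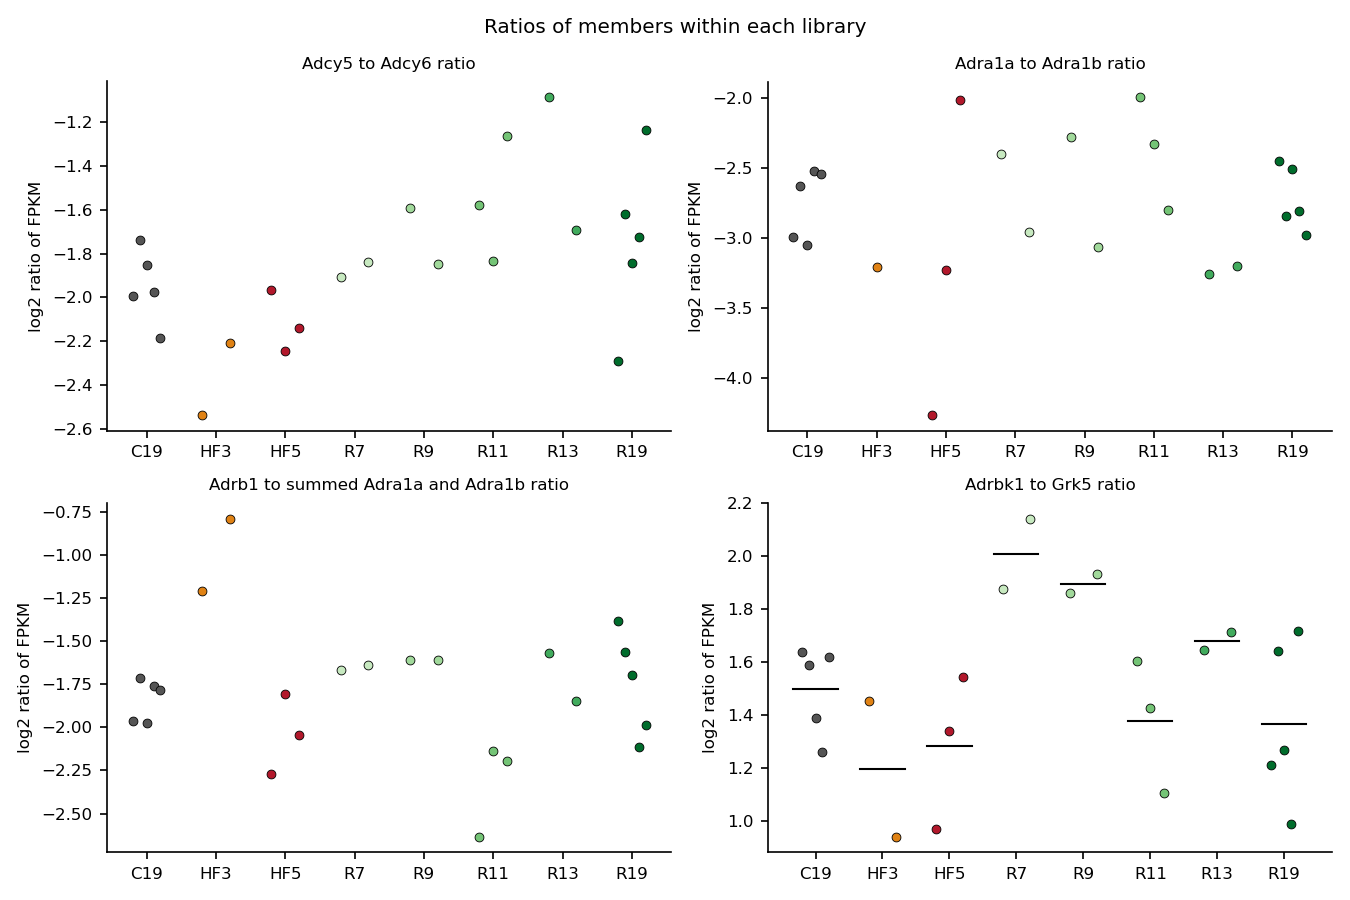
Log2 ratio of FPKM (vertical axes) within each library for 4 pairs of members, by group. Points are libraries, and bars, drawn only in the panel of Adrbk1 to Grk5, are the mean. HF week 3 library 1 has no point for Adra1a to Adra1b, since Adra1a is listed at 0 there. The HF week 5 libraries of the Adra1a to Adra1b ratio spread over both sides of the control range.

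Other genes of the pathway were taken from lists of 98 genes, of which 81 were above the minimum level and tested. In HF week 5 against Control week 19, 11 were higher, 21 lower and 49 not called, where 11.6% and 12.4% of all genes were higher and lower. Their median log2 fold change was -0.11, beside -0.52 for the 9 members. In Recovery week 19 against HF week 5, 18 were higher and 6 lower, where 1567 and 1525 of all 12759 genes were. Against Control week 19, 0 were called by limma and 0 had an unadjusted p under 0.05, where 0.0235% and 2.88% of all genes were or had. Without HF library 1, the counts in HF were 4 higher and 12 lower, and in recovery 9 higher and 1 lower, where 4.21% and 6.45% of all genes were higher and lower in HF and 6.90% and 5.27% in recovery. Of the genes given as called in HF in the following paragraphs, Arrb1, Pde3a, Pde1b, Prkar2a, Akap1, Ppp1ca, Ppp1cb, Atf1, Rgs3, Prkce, Slc22a3 and Maob were then still called in HF, and the others were not.

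Among the other receptors, Adra1d, the third α1 receptor, read 0.270, 0.691 and 0.642 FPKM in HF week 5 and 0.799 to 2.05 FPKM in control. All HF libraries were lower, with a log2 fold change of -0.94 (limma, SE 0.243, adjusted p = 0.00924), and it was higher by 0.91 in Recovery week 19. Adrb3, Adra2a, Adra2b and Adra2c were below the minimum level. Of 4 receptor kinases and arrestins tested, 3 were higher in HF (1 without HF library 1), where 11.6% of all genes were: Arrb1 by 0.82 (adjusted p = 0.00404) and Arrb2 by 0.62 (0.00800), the arrestins that bind phosphorylated receptors, and the kinase Adrbk2 by 0.66 (0.0451), from limma. Grk6 was not called (0.16, adjusted p = 0.557).

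Of 10 G protein subunits, only Gng2 was called, at 1.41 (limma, SE 0.435, adjusted p = 0.0240), and its FPKM of 15.1, 1.23 and 1.91 in HF week 5 were highest in HF library 1. Gnas, the α subunit that couples β receptors to cyclase, was at -0.05 and Gnaq, the α subunit for α1 receptors, at 0.03, neither called (adjusted p = 0.820 and 0.943). Of the 3 other cyclases tested, Adcy9 was lower by a log2 fold change of -1.02 (adjusted p = 0.0112), while Adcy4 (0.61, adjusted p = 0.0104) and Adcy7 (0.70, adjusted p = 0.0293) were higher (limma). Of 13 other phosphodiesterases, Pde3a was lower, at 0.316, 0.393 and 0.271 FPKM in HF and 0.789 to 2.21 FPKM in control, with a log2 fold change of -1.39 (limma, SE 0.301, adjusted p = 0.00300) and a rise of 1.67 in recovery. Pde8a was also lower (-0.79, adjusted p = 0.0241) and Pde1b higher (0.69, adjusted p = 0.00251).

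Of 13 PKA subunits and anchors tested, 7 were lower and 1 higher, where 12.4% and 11.6% of all genes were. Without HF library 1, 3 were lower (Akap1, Pkia and Prkar2a) and 0 higher. Prkar2a, a type II regulatory subunit, read 1.06, 1.07 and 1.60 FPKM in HF week 5 and 2.55 to 6.58 FPKM in control. Its log2 fold change was -1.70 (limma, SE 0.254, adjusted p = 0.000185), the largest fall among the 81 genes tested, and it was higher by 1.89 in Recovery week 19 (adjusted p = 8.9e-05). Prkar2b, the other type II subunit, was higher by 1.05 (adjusted p = 0.00865), at 2.15, 1.35 and 0.476 FPKM in HF and 0.147 to 0.537 FPKM in control, which overlap. Prkaca, the catalytic subunit, fell from 81.8 to 134.8 FPKM in control to 49.0, 77.6 and 71.7 FPKM in HF (adjusted p = 0.0102, log2 fold change -0.85), and Akap1, an anchor at mitochondria, was at -0.83 (adjusted p = 0.00137), from limma.

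Downstream of PKA, 1 of 8 substrates of contraction was called, where 24.0% of all genes were in either direction. Pln, phospholamban, which restrains the calcium pump until PKA phosphorylates it, read 395.2, 1243 and 1079 FPKM in HF week 5 and 1418 to 1566 FPKM in control, without overlap (log2 fold change -0.87 in limma, SE 0.248, adjusted p = 0.0157). It was not called without HF library 1, when Kcnq1 of this list was lower, where 6.45% of all genes were. Of 7 genes of protein phosphatase 1, 3 were lower (2 without HF library 1), where 12.4% of all genes were, among them the catalytic subunits Ppp1ca (-0.58, adjusted p = 0.00590) and Ppp1cb (-0.31, adjusted p = 0.0394), and 0 were higher. Of 8 other effectors of cAMP, 3 were lower (1 without HF library 1): Rapgef4 (-0.53, adjusted p = 0.0189), Popdc2 (-0.78, 0.0113) and Atf1 (-0.83, 0.000640).

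On the α1 side, Rgs3, which shortens the Gq signal, read 44.5, 35.2 and 33.9 FPKM in HF week 5 and 14.0 to 27.2 FPKM in control. All 3 HF libraries were higher (log2 fold change 0.96 in limma, SE 0.205, adjusted p = 0.00266), and the gene was lower in Recovery week 19 than in HF (log2 fold change -0.94, adjusted p = 0.00317). Of the 10 genes of this list, Prkcd was also higher (0.52, adjusted p = 0.0380) and Prkce lower (-0.62, adjusted p = 0.00190), from limma. Over all genes, 11.6% were higher and 12.4% lower. Without HF library 1, 2 of the 10 were higher and 2 lower, where 4.21% and 6.45% of all genes were. Among 4 genes of catecholamine uptake and breakdown, the transporter Slc22a3 (-1.17, adjusted p = 0.000971) and the monoamine oxidase Maob (-0.85, adjusted p = 4.32e-05) were lower, where 12.4% of all genes were. Maoa was higher (0.61, adjusted p = 0.0133), where 11.6% of all genes were (limma). The noradrenaline transporter Slc6a2, which marks sympathetic nerve endings, was below the minimum level. The 6 genes of sympathetic neurons summed to 8.747, 1.702 and 1.904 FPKM in HF week 5 and 0.930 to 1.549 in control. Of these 6, only Dbh, which makes noradrenaline, lay above all controls in HF week 5, as did 14.8% of all genes. Dbh read 8.606, 1.175 and 1.529 FPKM against 0.713 to 1.019. In HF week 3 it is listed at 0 in library 1 and read 0.549 FPKM in library 2. Th, the first enzyme of the same synthesis, is listed at 0 in all of these libraries, and Slc6a2 was at most 0.0398 FPKM. The part of nerve transcripts in the member levels was not tested.

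**Figure D5:**
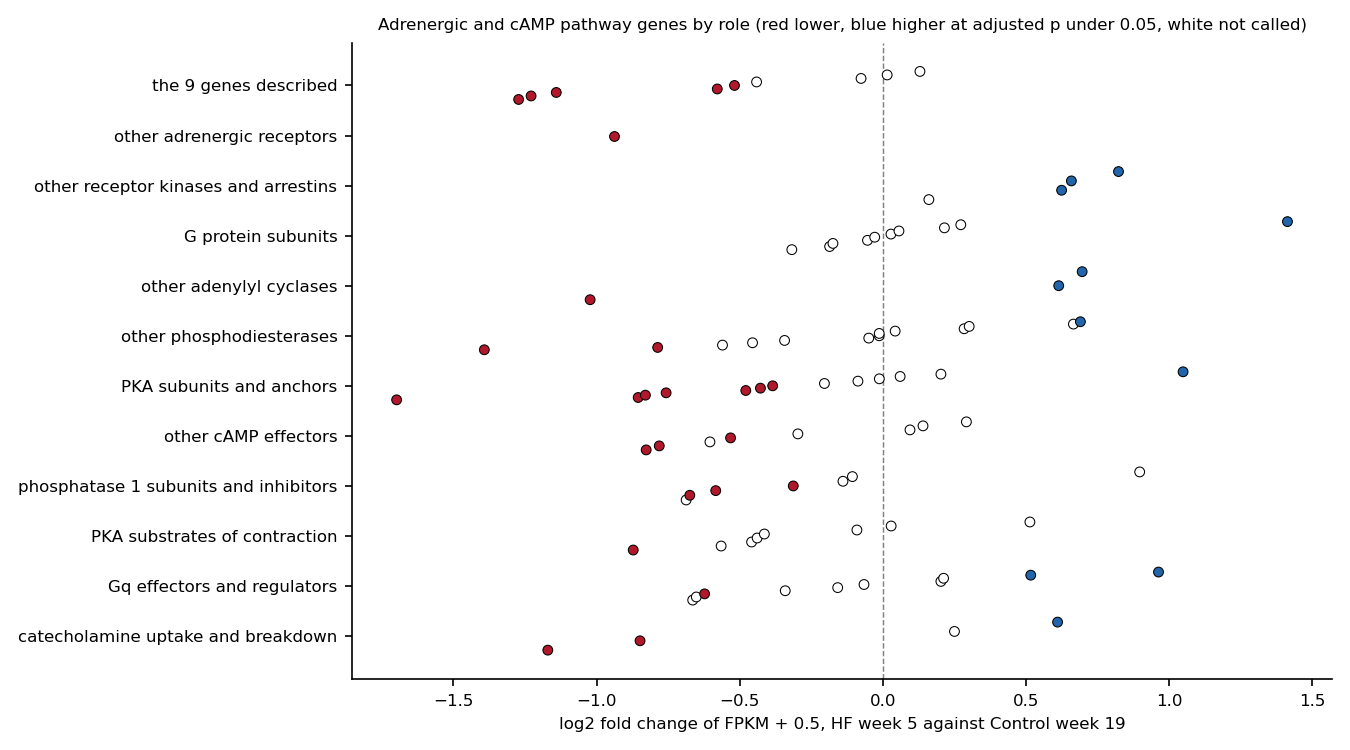
Log2 fold change of FPKM + 0.5 in HF week 5 against Control week 19 (horizontal axis) for the 9 genes described and 81 other genes of the pathway, by role (rows). Each point is a gene, red where lower, blue where higher at an adjusted p under 0.05 (limma) and white where not called. Red points number 5 among the 9 genes (3 without HF library 1 or 3) and 7 of 13 among the PKA subunits and anchors (3 without HF library 1), and 3 of 4 receptor kinases and arrestins are blue (1 without HF library 1), where 12.4% and 11.6% of all genes were lower and higher.

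Profiles of the members were compared over all 24 libraries as Pearson's r of log2(FPKM + 0.5), given as a description, since the libraries share groups and the differences between groups enter each r. Adrb1 was most like Adcy5 (r = 0.865) and Adra1b (r = 0.861) among the members, Adra1b was at r = 0.829 with Adcy5 and at 0.787 with Adra1a, and Grk5 was at r = -0.254 to 0.0822 with the other 8. Among all genes tested, the profiles most like those of the receptors were Actr1b (r = 0.931) for Adrb1, Mypn (0.961) for Adra1a and Mccc1 (0.943) for Adra1b. For Adcy5 it was AU040320 (0.939), for Adcy6 Dot1l (0.919) and for Pde4d the potassium channel gene Kcnq1 (0.896). For Adrbk1 (Ube3b, 0.716), Ppp1r1a (Lgmn, 0.724) and Grk5 (Ppfibp1, 0.790) the nearest profiles were less alike. RefSeq lists genes overlapping Grk5 (3), Adcy5 (2) and Pde4d (7), and whether fragments were counted by strand is not given in the sources used here.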

How the data were processed

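Poly(A) RNA from mouse hearts was sequenced from both ends. The authors aligned reads with TopHat to MGSCv37 (mm9) and deposited FPKM from Cuffdiff, one column per library. Annotation, strand and scaling between libraries are not given in the sources used here, and differences arising there stay in the data. Each column was assigned to a group by its name, and libraries have no link to a labelled animal. The 5 columns named for week 5 controls, a label of 4 samples, were not used, and Recovery week 9 has 2 columns for 3 samples. Where nothing names separate animals, p-values measure the spread between libraries.

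The 12759 genes averaging 0.5 FPKM or more were fitted as log2(FPKM + 0.5) with limma 3.58.1 in R 4.3.3, 8 group means, 16 residual degrees of freedom and eBayes with a trend. On this scale the change of low genes is understated. Tests were two-sided, and calls used a Benjamini-Hochberg adjusted p under 0.05. Ratios were tested by exact permutation with scipy 1.17.1. Calculations were tested on simulated data. Named genes were all 9 members, of the other pathway genes the 12 with the largest change in HF among 33 called in HF or recovery, and for each member its nearest profiles; other genes were named after their values were seen. Members and lists were chosen with earlier results of these data known. A gene of the pathway lists is not reported here. Alternatives were pseudocounts of 0.1 and 1, no filter, median, quantile and sarcomere centring, fewer groups in the fit, unadjusted p and leaving out each library.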

Additional observations from a re-analysis of the deposited data

Results flagged for a closer look

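Of 42 groups of 5 libraries examined, 4 held a library far from the others, and chance gives about 1 in 20. All 4 were the lowest value of Control week 19, and all in library 5. Adrb1 read 2.843 FPKM there, against 5.27 to 5.52 in the other control libraries, and Adcy6 read 31.39 against 38.83 to 41.64. The PKA subunits Prkar2a and Prkaca read 2.547 against 5.639 to 6.581 and 81.82 against 123.5 to 134.8.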

How the results depend on the processing

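No paired analysis was possible because the columns carry no numbers that the labels of the groups share. With each library left out in turn, HF week 5 against Control week 19 gave 3 to 5 members lower, 3 without HF library 1 and 3 without HF library 3. In Recovery week 19 against HF week 5 the count higher was 4 throughout, though without HF library 1 Adra1a was lost and Pde4d gained. Adrb1 and Adra1b were called in HF in 19 of 19 alternatives, Adra1a in 18, Adcy5 in 17 and Pde4d in 10.

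With sarcomere centring, HF week 3 against Control week 19 gave 2 members higher and 3 lower in place of 0 and 5, Adrbk1 turned from -0.10 to 0.37, and Recovery week 7 against HF week 5 gave 1 higher and 0 lower. The same centring gave 0 higher in HF week 5 against HF week 3, as did a pseudocount of 1 and quantile normalization. In Recovery week 9 against HF week 5 it gave 0 higher and 1 lower, and a pseudocount of 1 gave 0 higher. Median centring gave 0 lower at Recovery week 7, and it and quantile normalization gave 2 higher at Recovery week 11. The ratio of Adcy5 to Adcy6 in Recovery week 19 against Control week 19 differed by 0.081 to 0.34 on the log2 scale with a library left out, with an exact permutation p of 0.0317 (unadjusted) without recovery library 1. The causes were not tested. Absolute depth is unknown, so counting error is not given, and low genes such as Adra1a are the least precise.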
